A study of Bombyx mori with 9 samples.

Results

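The RR-motif cuticle proteins of the silkworm, Bombyx mori, were followed in silk glands of 3 strains. Members were all rows of the deposited gene table whose symbol begins with BMORCPR. There were 103 such rows of 15745, with 102 distinct symbols, because BMORCPR115 stands on 2 gene models. The table gives expression as FPKM, a value scaled by transcript length and library size, so levels can be compared between genes.

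The strains were A306, A798 and XH, pure lines chosen by the submitters for their different silk gland weights, with A798 the heaviest and A306 the lightest. All larvae were reared under the same temperature and humidity and sampled on day 5 of the fifth instar, the last larval stage. Each strain had 3 libraries of total RNA from the silk gland, 9 in all. The labels do not say which part of the gland was taken, how many animals a library holds or of which sex they were. The labels give each library 2 silk gland weights of its own, from 0.596 to 0.733 g in A306, 0.889 to 1.041 g in XH and 1.189 to 1.441 g in A798, and no weight occurs more than 1 time within a strain. They do not say outright that the 3 libraries of a strain are separate animals, and the p-values rest on the spread between these libraries. RNA from whole tissue cannot tell fewer cells of a type from less RNA per cell.

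Insect cuticle is built of chitin fibres and proteins that bind them. The largest protein family carries the Rebers-Riddiford (RR) motif, a stretch that binds chitin. Proteins of the RR-1 class are known mainly from soft, flexible cuticle and those of the RR-2 class from hard cuticle. They are made chiefly by the epidermis, in waves around each moult under control of the moulting hormone. The silk gland is of ectodermal origin, and its anterior duct is lined by a thin chitinous layer, whereas the middle and posterior parts secrete silk. The files give neither the class of a member nor a function beyond "putative cuticle protein".

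Most of the family was not detected in these glands. Of the 103 members 56, or 54.4%, were listed at 0 in all 9 libraries, against 29.6% of the 14623 genes of the table. Another 32 were above 0 somewhere but never reached 1 FPKM, the highest of them being BMORCPR25 at 0.98 FPKM in a single XH library. The other 15 reached 1 FPKM in at least 1 library, and 6 members were above 0 in all 9. They included BMORCPR22, BMORCPR34, BMORCPR42, BMORCPR43 and BMORCPR90. An exact 0 can be a failed estimate, since 7 of 52 ribosomal protein genes, which every cell uses, were also listed at 0 throughout. A strain at 0 is therefore given by its libraries, with no fold change.

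At a line of 1 FPKM, XH had the most members detected. Strain means reached it for 7 members in A306, 7 in A798 and 9 in XH, which is 6.80%, 6.80% and 8.74% of the family, beside 28.8%, 27.6% and 29.0% of all genes. At 0.5 FPKM the counts were 8, 9 and 13, and at 2 FPKM they were 5, 7 and 7, so that A798 and XH were level at the higher line. In at least 1 library 24, 30 and 34 members were above 0 in A306, A798 and XH. These counts are 23.3%, 29.1% and 33.0% of the family, while 56.5%, 58.5% and 58.6% of all genes were above 0 by the same rule. Per library, 14, 20 and 16 members were above 0 in A306, 20, 20 and 21 in A798, and 23, 20 and 22 in XH. At 1 FPKM or more stood 7, 6 and 9 members in the A306 libraries, 7, 8 and 8 in A798, and 10, 10 and 11 in XH. The counts at 1 FPKM of the XH libraries lay above those of all other libraries, while the counts above 0 overlapped. Over all genes the XH libraries were also the highest at this line, with 4164, 4203 and 4170 genes, against 4124 to 4162 in A306 and 3927 to 3997 in A798. The counts were not tested, because sequencing depth, which decides how many weak genes are seen, is not known for these libraries.

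**Figure D1:**
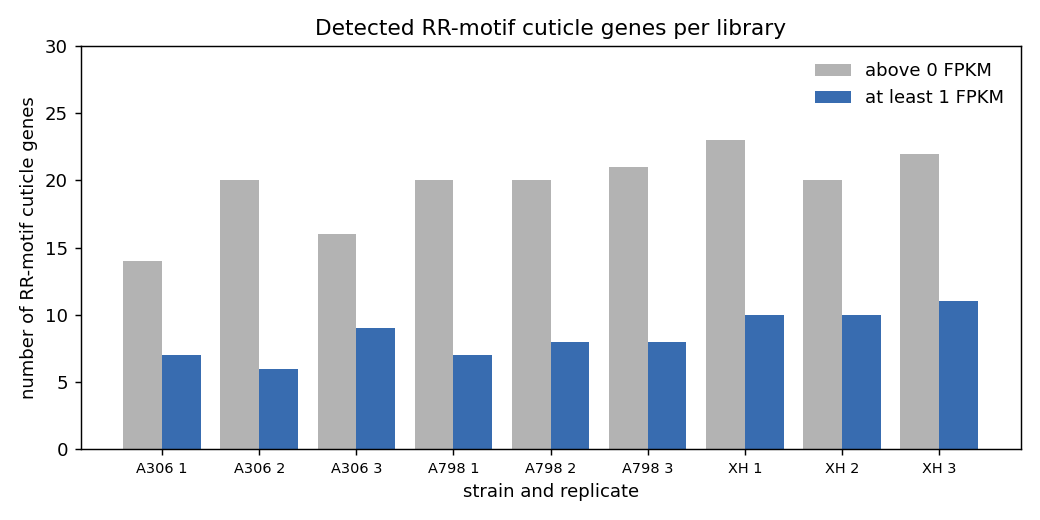
Number of RR-motif cuticle genes (vertical axis) listed above 0 FPKM (grey bars) and at 1 FPKM or more (blue bars) in each of the 9 libraries. The blue bars stand at 10, 10 and 11 in XH and at 6 to 9 in the other strains.

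The same 5 members reached a mean of 1 FPKM in all 3 strains, BMORCPR34, BMORCPR42, BMORCPR43 and BMORCPR90 among them. The remainder of each strain's set differed. BMORCPR23 was on the list of A798 and XH, and BMORCPR56 on that of A306 and XH. BMORCPR101 was on that of A798, and BMORCPR32 and BMORCPR70 on that of XH. Together 11 members reached a mean of 1 FPKM in some strain. They are also the 11 that passed the filter of the test, which asks for 1 FPKM or more in 3 or more libraries and kept 10.7% of the family and 29.4% of all features.

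BMORCPR42 was the most abundant member in every library and made up between 34.6% and 52.5% of the family's summed FPKM. The sum over all 103 members was 124 ± 1.29 FPKM in A306, 165 ± 13.6 in A798 and 247 ± 8.95 in XH (mean ± SD, n = 3). It is a description, with no test. Without BMORCPR42 the sums were 64.3 ± 1.77, 105 ± 12.2 and 121 ± 3.18 FPKM. The sum was small beside the silk genes: the fibroin chains, P25 and the silk gland factors SGF1 and SGF3 together reached 24341 FPKM in the lowest library.

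**Figure D2:**
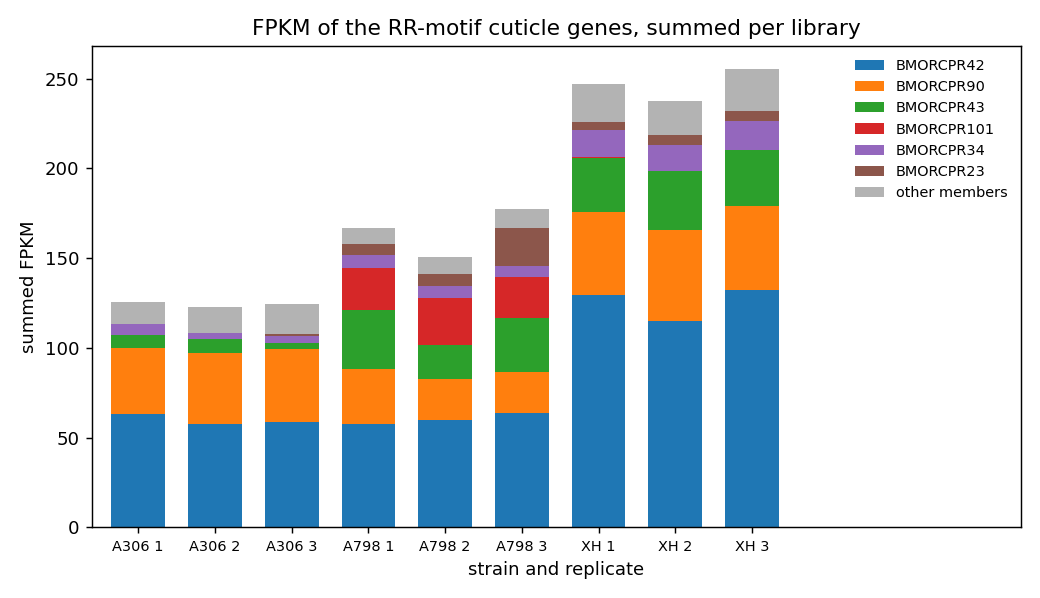
FPKM of the RR-motif cuticle genes summed per library (vertical axis, linear from 0), with 6 of the most abundant members in colours and the other members in grey. BMORCPR42 is the largest block everywhere, BMORCPR101 is visible in A798 alone, and BMORCPR43 is thin in A306.

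The members fall into groups of neighbouring genes. By synonym, 94 of the 103 rows matched the RefSeq gene table of assembly ASM3026992v2, which was used for gene order only, because the build of the deposited table is not given in the sources used here. Members with at most 14 other genes between them were taken as 1 run. A run is named by its lowest and highest symbol number, which need not lie at its ends. The largest run, with 34 members from BMORCPR79 to BMORCPR147, is in the published naming mostly of the RR-2 class. A second run with 15 members, from BMORCPR23 to BMORCPR53, is of the RR-1 class in the same naming. Of the 15 members of the RR-1 run 10 were above 0 somewhere and 5 passed the filter. Of the 34 members of the larger run 12 were above 0 somewhere and 3 passed. A stretch of 17 rows in this run, from BMORCPR129 to BMORCPR105 in gene order, was listed at 0 in every library. In the run BMORCPR11 to BMORCPR19, 6 of 7 members were at 0 throughout.

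The difference in the family's sum between the strains lay mainly in the RR-1 run. Between XH and A798 it was mostly that of BMORCPR42, a member of this run. Its summed FPKM was 70.8 ± 4.49 in A306, 107 ± 13.9 in A798 and 184 ± 10.3 in XH, while that of the run BMORCPR79 to BMORCPR147 was 41.4 ± 2.36, 51.5 ± 3.99 and 49.5 ± 1.20 (n = 3). Without BMORCPR101 the latter became 41.3 ± 2.27, 27.4 ± 4.34 and 49.4 ± 1.26 FPKM. BMORCPR42 itself averaged 59.8 FPKM in A306, 60.3 in A798 and 126 in XH. The RR-1 run without it summed to 46.7 ± 11.8 FPKM in A798 and 58.6 ± 2.74 in XH, and was lowest in A306. These sums are descriptions as well.

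**Figure D3:**
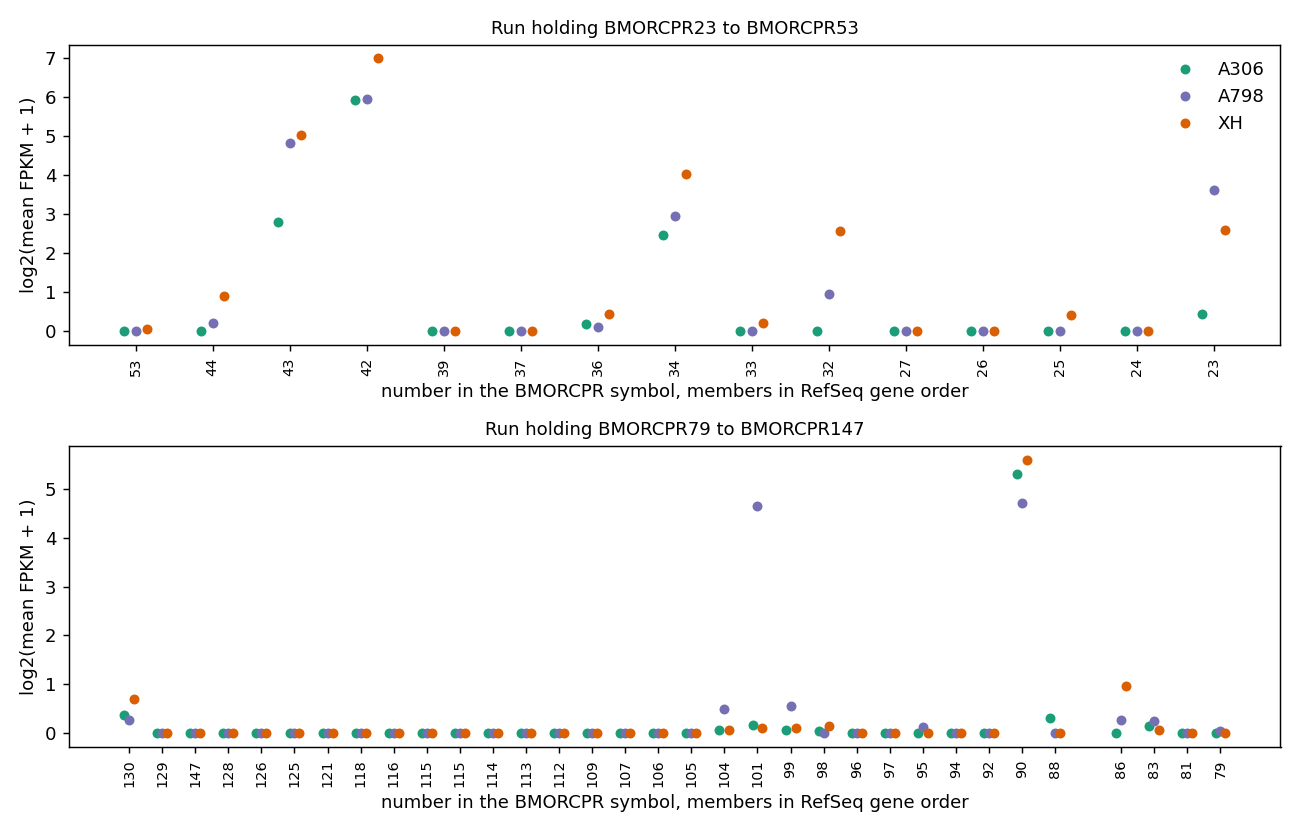
Strain means as log2(mean FPKM + 1) (vertical axis) for members of the 2 largest runs, placed in RefSeq gene order (horizontal axis, labelled with the number of each symbol). In the upper run, members at 0 alternate with expressed ones; in the lower run, BMORCPR90 and, in A798 alone, BMORCPR101 stand out from a stretch near 0.

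Values were compared between strains with limma on log2(FPKM + 1), fitted to all 9 libraries and 4636 features, with Benjamini-Hochberg adjustment over all of them; a call is an adjusted p below 0.05, two-sided. The 2 comparisons against A798 share its libraries. Values of tested members follow, beginning with those that differ most between strains.

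BMORCPR101 (BGIBMGA000428), of the larger run, was expressed in A798 and close to 0 in the other strains. Its A798 libraries stood at 23.7, 26.1 and 22.6 FPKM, the A306 libraries at 0, 0.25 and 0.13, and the XH libraries at 0.24, 0 and 0. The A798 libraries lay far above all 6 others, which overlapped among themselves. The log2 change was -4.48 ± 0.142 (SE) in A306 against A798 (adjusted p = 2.12e-07) and -4.54 ± 0.142 in XH against A798 (adjusted p = 2.55e-07); the pseudocount of 1 limits both. Between A306 and XH the adjusted p was 0.771. BMORCPR101 passed the filter through its 3 A798 libraries alone, the strain in which it is high. Fitted with no filter, it was also called lower in A306 and in XH than in A798 (adjusted p = 7.24e-07 and 1.01e-06). By synonym BMORCPR101 matched a gene that RefSeq names CPR102, and its place in gene order rests on that match. The nearest members on either side in gene order, BMORCPR104 and BMORCPR99, each with 1 other RefSeq gene between, did not pass the filter but were also highest in A798. BMORCPR99 was at 0.40, 0.45 and 0.55 FPKM in A798, at 0.11, 0 and 0 in A306 and at 0, 0.22 and 0 in XH. BMORCPR104 was at 0.50, 0.29 and 0.44 FPKM in A798, at 0, 0.11 and 0 in A306 and at 0.12, 0 and 0 in XH. For each of them the A798 libraries lay above the other 6. In a fit with no filter both were called lower in A306 and in XH (changes from -0.50 to -0.44, adjusted p from 0.00554 to 0.0145). These changes are small, and neither member exceeded 0.55 FPKM in any library. Paralogs share sequence, and whether reads of BMORCPR101 were counted for its neighbours was not tested.

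BMORCPR42 (BGIBMGA000328), of the RR-1 run, was about doubled in XH. The XH libraries stood at 130, 115 and 132 FPKM. Those of A306 stood at 63.0, 57.8 and 58.6, and those of A798 at 57.7, 59.6 and 63.5. XH lay above all other libraries, and A306 and A798 overlapped. The change was 1.05 ± 0.0673 in XH against A798 (adjusted p = 1.61e-05; 2.09-fold) and -1.06 ± 0.0673 in A306 against XH (adjusted p = 9.44e-06). In A306 against A798 it was -0.01, with an adjusted p of 0.918. All features together shifted by a median of 0.31 in that comparison, by 0.19 in XH against A798 and by 0.12 in A306 against XH. Relative to this shift BMORCPR42 stood at -0.32, 0.85 and -1.18 in these comparisons. Under TMM scaling, median centring, quantile normalization and without the non-coding ENSRNA models, it was called lower in A306 than in A798 (adjusted p = 0.00336, 0.00679, 0.00393 and 0.0427).

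BMORCPR43 (BGIBMGA000327) lies beside BMORCPR42 with 1 other gene between, but followed another pattern: it was low in A306 and alike in level in A798 and XH. Its libraries were at 6.97, 7.63 and 3.37 FPKM in A306, at 33.0, 18.9 and 30.4 in A798 and at 30.6, 32.7 and 31.6 in XH. The A306 libraries lay below all others, and those of A798 and XH overlapped. The change was -2.05 ± 0.285 against A798 (adjusted p = 0.000658; 4.58-fold) and -2.28 ± 0.285 against XH (adjusted p = 0.000455; 5.28-fold). Between XH and A798 it was 0.24 ± 0.285, with an adjusted p of 0.579.

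BMORCPR23 (BGIBMGA000346), at the other end of the RR-1 run, was also near 0 in A306, at 0, 0 and 1.10 FPKM. The A798 libraries stood at 6.16, 6.75 and 21.1 FPKM and those of XH at 4.31, 5.81 and 5.08. A798 replicate 3 was thus far above the others of its strain, and it was also the one with the highest share of ribosomal RNA models in its FPKM sum, 19.6% against 5.05% to 11.3% in the other libraries. Whether the share has a part in the value was not tested. BMORCPR23 was called lower in A306 than in A798 (-3.06 ± 0.467, adjusted p = 0.00104) and than in XH (-2.24 ± 0.467, adjusted p = 0.00664). Without A798 replicate 3 the change against A798 was -2.54, with an adjusted p of 0.00121. XH and A798 libraries did not overlap, but the change of -0.83 ± 0.467 did not pass the test (adjusted p = 0.219), and it was -0.30 without A798 replicate 3.

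BMORCPR34 (BGIBMGA000336), of the same run, rose in order from A306 to A798 to XH. It was at 5.94, 3.42 and 4.21 FPKM in A306, at 7.05, 6.82 and 6.37 in A798 and at 14.97, 14.57 and 16.11 in XH. No libraries of different strains overlapped. XH was higher than A798 (1.07 ± 0.155, adjusted p = 0.00125; 2.26-fold) and A306 lower than XH (-1.58 ± 0.155, adjusted p = 0.000114; 3.36-fold). The difference between A306 and A798 was small, -0.51 ± 0.155 (adjusted p = 0.0269). That call was lost without A306 replicate 2 or 3 and without A798 replicate 1, 2 or 3 (adjusted p from 0.0501 to 0.0728), with no filter (adjusted p = 0.0518) and with only the libraries of these strains in the fit (adjusted p = 0.0674).

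BMORCPR32 (BGIBMGA000338), separated from BMORCPR34 by BMORCPR33, had the same order. It was listed at 0 in all A306 libraries, at 0.51, 1.82 and 0.47 FPKM in A798 and at 5.08, 3.92 and 5.76 in XH. XH lay above A798 in all libraries (1.67 ± 0.26, adjusted p = 0.00177; 5.27-fold). BMORCPR33 itself, between them, was listed at 0 except for 0.24 and 0.27 FPKM in 2 XH libraries. A306 was called lower than XH (adjusted p = 0.000143) and than A798 (adjusted p = 0.0243). The call against A798 was lost without A306 replicate 1, 2 or 3 (adjusted p from 0.0577 to 0.0597), with no filter (adjusted p = 0.0564) and with the replicate number as a block (adjusted p = 0.0508).

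BMORCPR90 (BGIBMGA000274), the most abundant member of the larger run, was lowest in A798. The libraries stood at 37.1, 39.3 and 40.5 FPKM in A306, at 30.3, 23.0 and 22.9 in A798 and at 45.9, 50.4 and 46.4 in XH, with no overlap between strains. Both A306 (0.61 ± 0.107, adjusted p = 0.00224; 1.53-fold) and XH (0.89 ± 0.107, adjusted p = 0.000489; 1.87-fold) were higher than A798 as deposited. The change in A306 lay 0.30 above the shift of all features, and its call was lost when libraries were scaled by TMM, median or quantiles (adjusted p = 0.125, 0.0720 and 0.0791). A306 against XH gave -0.28 ± 0.107 (adjusted p = 0.0757). It was called under the same 3 scalings and without ENSRNA features (adjusted p from 0.0105 to 0.0275), with only these strains in the fit (adjusted p = 0.0151) and without A798 replicate 1 (adjusted p = 0.00958), whose library takes part in the shared variance alone.

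BMORCPR70 (BGIBMGA010143) did not pass the test in any pair of strains (adjusted p from 0.362 to 0.791). Its libraries were at 0.66, 0.16 and 1.42 FPKM in A306, at 0, 0.18 and 1.84 in A798 and at 0.92, 1.18 and 1.55 in XH. They overlapped in all pairs.

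BMORCPR56 (BGIBMGA013163), which has no other member close by, was listed at 0 in all A798 libraries, at 2.09, 0.86 and 2.26 FPKM in A306 and at 1.00, 1.25 and 1.62 in XH. A306 and XH overlapped with each other and were called higher than A798 (adjusted p = 0.00141 and 0.00515).

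**Figure D4:**
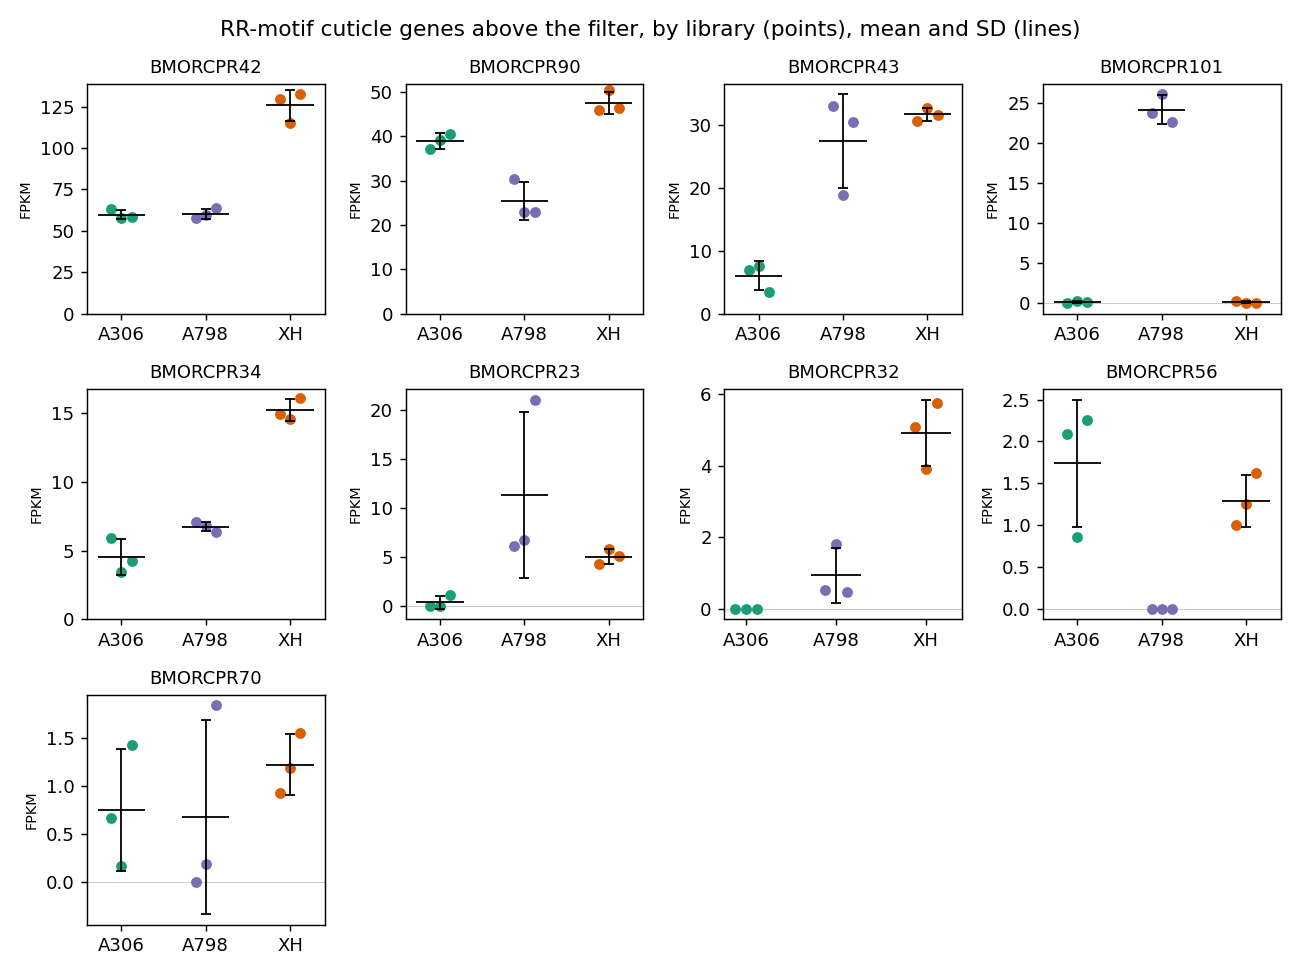
FPKM (vertical axes, linear, a scale of its own in each panel) of 9 members above the filter in every library (points), with the mean (line) and SD (bars) of the 3 libraries of a strain; no mean is drawn for a strain listed at 0. BMORCPR101 stands at 22.6 to 26.1 FPKM in A798 and at or below 0.25 elsewhere, and BMORCPR42 at 115 to 132 in XH against 57.7 to 63.5 elsewhere.

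Another 4 members reached 1 FPKM without passing the filter. BMORCPR44, next to BMORCPR43, was listed at 0 in A306, at 0, 0.48 and 0 FPKM in A798 and at 0.39, 0.87 and 1.35 in XH. BMORCPR86 was listed at 0 in A306, at 0.22, 0 and 0.41 FPKM in A798 and at 1.11, 0.24 and 1.54 in XH. Both were thus highest by mean in XH. BMORCPR130 was at 0.22, 0.21 and 0.47 FPKM in A306, at 0.40, 0 and 0.19 in A798 and at 1.21, 0 and 0.68 in XH, with all strains overlapping. BMORCPR1 was at 1.14 FPKM in XH replicate 2 and at 0.33 or less elsewhere. All 4 are named because they reached 1 FPKM, which they did in XH libraries alone. A call as higher in XH is therefore no separate support. With no filter, BMORCPR44 and BMORCPR86 were called lower in A306 than in XH (adjusted p = 0.0282 and 0.0451), and BMORCPR130 and BMORCPR1 were not called in any pair (adjusted p from 0.32 to 1).

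A306 against A798 gave 4 higher and 5 lower members of the 11 tested, and 2 that did not pass. In this comparison 47.5% of all features tested were called, 37.9% as higher and 9.60% as lower. The members higher in A306 included BMORCPR56 and BMORCPR90, and those lower were BMORCPR23, BMORCPR32, BMORCPR34, BMORCPR43 and BMORCPR101. The median change of the 11 was -0.01, beside 0.31 over all features. All 5 lower members except BMORCPR101 are of the RR-1 run, and none of the higher ones is. The run was set by gene order, and the class of members outside it, such as BMORCPR56, is not given here. With TMM, median or quantile scaling, which equalise the bulk of genes, the count was 2 higher and 6 lower. Over all features the 1759 higher and 445 lower calls became 734 and 828 with TMM. The libraries of A306 and A798 did not overlap for 4 higher and 5 lower members, beside 56.7% of all features, 45.4% as higher and 11.3% as lower.

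XH against A798 gave 6 higher and 1 lower member, and 4 that did not pass. The background was 33.7% of features called, 25.7% as higher and 8.02% as lower. BMORCPR32, BMORCPR34, BMORCPR42, BMORCPR56 and BMORCPR90 were among the higher, BMORCPR101 was lower, and the median change was 0.64 beside 0.19 over all features. The split of 6 and 1 stood under each of these scalings, while the 1191 higher and 372 lower calls over all features became 629 and 655 with TMM. Libraries did not overlap for 6 higher and 2 lower members, beside 46.3% of all features, 34.9% as higher and 11.4% as lower.

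A306 against XH gave 1 higher member and 5 lower ones, BMORCPR23, BMORCPR32, BMORCPR34, BMORCPR42 and BMORCPR43. Here 36.5% of all features were called, 23.1% as higher and 13.4% as lower, and the median change was -0.40 in the members and 0.12 over all features. With TMM, median or quantile scaling BMORCPR90 joined the lower ones, for 1 higher and 6 lower. Over all features the 1071 higher and 622 lower calls became 731 and 787 with TMM. Libraries did not overlap for 1 higher and 6 lower members, beside 50.1% of all features, 32.1% as higher and 18.0% as lower. All 5 tested members of the RR-1 run were therefore lower in A306 than in XH. By strain means, XH was the highest strain for 6 of the 11 members, A306 for 3 and A798 for 2, whereas over all features A306 was highest for 54.5%, XH for 31.4% and A798 for 14.1%. The members were too few for a firm reading of these shares, and the filter can pass a member through the strain in which it is high, as with BMORCPR101 in A798.

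**Figure D5:**
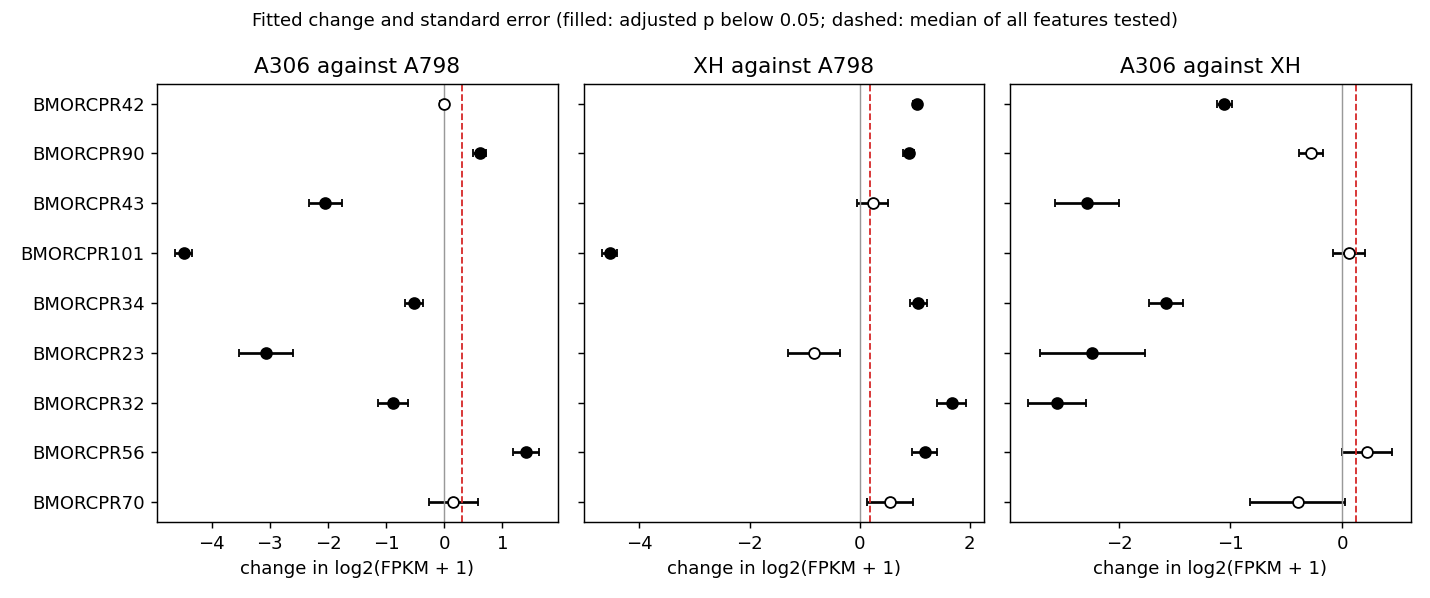
Fitted change in log2(FPKM + 1) with its standard error (horizontal axes) for 9 tested members in the 3 pairs of strains. Filled points have an adjusted p below 0.05, the dashed line is the median of all 4636 features, and BMORCPR101 lies near -4.5 in both comparisons against A798.

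The order of levels within a strain also differed. In A306 BMORCPR42 was followed by BMORCPR90 and then, at a distance, by all other members. In A798 BMORCPR42 was followed by BMORCPR43, BMORCPR90 and BMORCPR101, which overlapped with each other between 18.9 and 33.0 FPKM. In XH BMORCPR42 was followed by BMORCPR90, BMORCPR43 and BMORCPR34, with no overlap between neighbours in this order.

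The table lists 7 further RR genes under other symbols, and 3 passed the filter: BMWCP11, which RefSeq names CPR46 and places at the end of the RR-1 run, CPR4 and CPR149. All 3 were higher in XH than in A798, where 25.7% of all features were. None passed the test in A306 against A798, where 47.5% of all features did. In A306 against XH, BMWCP11 and CPR149 were lower, as were 13.4% of all features, and CPR4 did not pass (adjusted p = 0.0679). BMWCP11 was more abundant than any BMORCPR member, at 145 ± 17.0 FPKM in A306, 137 ± 4.74 in A798 and 305 ± 22.2 in XH (n = 3; XH against A798 1.15 ± 0.0874, adjusted p = 4.32e-05). CPR4, which the table describes as the cuticle protein LCP18, was at 26.1 ± 5.41, 13.7 ± 7.75 and 53.1 ± 8.78 FPKM (XH against A798 adjusted p = 0.00408). Its A306 libraries all lay above those of A798, with a change of 1.01 that did not pass (adjusted p = 0.0536). LCP22, which RefSeq names CPR38, and CPR69 were listed at 0 in all libraries. CPR2 was at 0.30 FPKM in 1 A798 library and CPR41 at 0.19 in 1 XH library, and both were at 0 elsewhere.

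Cuticle proteins of other classes had few tested members. Of 28 glycine-rich genes 4 were tested, and 3 of them, BMORCPG16, BMORCPG17 and CPG43, were higher in XH than in A798, with none lower, beside 25.7% and 8.02% of all features. In A306 against A798 only CPG43 was called, as higher. Of 36 genes of the hypothetical class 6 were tested; 3 were higher and none lower in A306, and 3 were higher and none lower in XH, each against A798. Among all features 37.9% were higher in A306 and 25.7% in XH, so the count in A306 is near the background. BMORCPT2, of the Tweedle class, was the single tested gene of 5 in its list and was higher in XH than in A798 (adjusted p = 0.0135) and not called in A306 against A798 (adjusted p = 0.839). BMORCPG16 and BMORCPT2 passed the filter through XH libraries alone, so their calls as higher in XH are no separate support. BMORCPH10, of the hypothetical class, passed it through A306 libraries alone.

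Of 8 genes for enzymes and related proteins of chitin synthesis and turnover 4 were tested, and in XH against A798 none was higher and 2 were lower, beside 25.7% and 8.02% of all features. GLCNACASE1, a beta-hexosaminidase, the enzyme type that trims chitin fragments, was at 158 ± 9.65 FPKM in A306, 176 ± 8.14 in A798 and 125 ± 6.22 in XH (XH against A798 -0.49 ± 0.0603, adjusted p = 0.000547). In A306 against A798 1 was higher and 1 lower, beside 37.9% and 9.60% of all features. Chitin synthase A did not pass the filter and stood between 0.16 and 0.59 FPKM. For cuticle tanning, tyrosine hydroxylase (TH) did not exceed 0.10 FPKM in any library, and the phenoloxidase genes PPO1 and PRO-PO2 were both higher in XH than in A798. In the moulting hormone list all 3 genes were higher in A306 than in A798, and 2 were higher in XH. Among all features 37.9% were higher in A306 and 25.7% in XH, and 3 genes are too few to set against these shares. USP, a partner of the ecdysone receptor, was listed at 0 in A798 and XH and at 14.5, 12.7 and 9.70 FPKM in A306. It passed the filter through A306 libraries alone, and PRO-PO2 through XH libraries alone. GLCNACASE3, a gene of the chitin list called lower in A306 and in XH than in A798, passed it through A798 libraries alone.

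Markers of other tissues moved along with some members. The 18 genes of fat body and haemolymph proteins summed to 70.9 to 77.3 FPKM in A306, 622 to 641 in A798 and 1800 to 1883 in XH, the same strain order as that of BMORCPR34 and BMORCPR32. None of them was at 0 in all libraries. Of the 13 tested, 11 were lower in A306 and 13 higher in XH, each against A798, beside 9.60% and 25.7% of all features. LSP-T, BGIBMGA004404 and BGIBMGA008164 among them passed the filter through XH libraries alone, which favours a call as higher in XH. The 7 haemocyte genes summed to 2.34 to 3.23, 2.15 to 2.62 and 6.90 to 7.34 FPKM, and 1 of them was at 0 in all libraries. Most of this sum was PPO1 and PRO-PO2, the phenoloxidase genes named above, which stood at 3.01 and 3.63 FPKM on average in XH. Hemocytin (BGIBMGA006692), a clotting protein of haemocytes, was at 0.36, 0.59 and 0.27 FPKM in A306, at 0.34, 0.64 and 0 in A798 and at 0, 0.01 and 0.34 in XH, with all strains overlapping. The 4 muscle genes summed to 70.7 to 77.9, 36.0 to 40.9 and 63.4 to 69.1 FPKM, lowest in A798 like BMORCPR90. Nearly all of this sum was muscle actin A1, at 72.9, 38.2 and 62.0 FPKM on average. MLC-2 and tropomyosin-1 were also lowest in A798 by mean, but highest in XH. Troponin C was lowest in A306, at 0.097 FPKM against 0.18 in A798 and 0.39 in XH. None of these lists was high in A798 alone, as BMORCPR101 was. The part of other tissues in the levels of the RR genes was not tested, and epidermis and trachea had no marker here apart from cuticle genes. All 5 silk gland markers on the list were above 0 in each strain, and no sericin gene was matched by name.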

How the data were processed

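The authors deposited FPKM values for silk glands of 3 strains with 3 libraries each, to 2 decimals, and per the submitters' processing notes used StringTie 1.3.3b, fastp 0.19.5 and DESeq2 1.24.0, with roles not stated. Names of the aligner, the build and the gene models were not given in the sources used here. Deposited columns of strain means, 3 in number, and a second table of 5 genes holding no member, were not used. Depth is unknown: ratios of low FPKM between libraries showed no steps of single fragments, the densest 5% window holding 5.35% to 13.1% of 637 to 948 genes over 36 pairs of libraries.

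The 4636 features at 1 FPKM or more in 3 or more of 9 libraries were fitted as log2(FPKM + 1), which understates changes of low genes, by limma 3.58.1 in R 4.3.3 with intensity-trended empirical Bayes variances. The procedure was tested on simulated data. The rule was to name all members above the filter and others reaching 1 FPKM; a few members are not reported here by name, though counts and sums hold them. Members, lists and tests were chosen with earlier results of these data known. Lists were matched by symbol and description. Alternatives covered pseudocount, filter, scaling, variance model, libraries and replicate block. Protein or promoter sequences were not used here.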

Additional observations from a re-analysis of the deposited data

How the results depend on the processing

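Counts of called members stayed within 1.5 times those reported under all alternatives run, except that with no filter on low values 11 in place of 7 were called in XH against A798. The 4 added were BMORCPR22, higher in XH, and BMORCPR99, BMORCPR104 and BMORCPR145, lower. None of the 4 reached 1 FPKM in any library, and BMORCPR145 never exceeded 0.120 FPKM. Leaving out single libraries, 6 to 9 members were called in A306 against A798, 7 to 8 in XH against A798 and 6 to 7 in A306 against XH. Counts of members at a mean of 1 FPKM ran from 7 to 8 in A306, 7 to 9 in A798 and 9 to 10 in XH. Counts over the whole table stayed within 1.5 times.

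No strong pairing of libraries by replicate number was seen. Same-numbered libraries of different strains deviated together at r = 0.000389 to 0.0626, and differently numbered ones at r = -0.0927 to 0.0363. With the replicate block 8, 7 and 6 members were called in A306 against A798, XH against A798 and A306 against XH; the one call lost was BMORCPR32.

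Of 504 values of the named members under alternatives 468 kept direction and side of the threshold, 15 lost the call, 10 gained one and 11 changed sign, none of these 11 a call as reported. Under median centring BMORCPR70 in A306 against A798 was -0.17, BMORCPR43 in XH against A798 -0.0033 and BMORCPR101 in A306 against XH -0.024. Leaving out single libraries, BMORCPR42 in A306 against A798 ran from -0.048 to 0.028, BMORCPR70 from -0.13 to 0.62, BMORCPR43 in XH against A798 from -0.0028 to 0.38 and BMORCPR101 in A306 against XH from -0.015 to 0.17. The cause was not tested. With 3 libraries a strain and unknown depth, members near 0 cannot be ranked.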
